A study of Mus musculus with 12 samples.

Results

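Of the 298593 transposable element (TE) copies listed for newborn mouse gonocytes, 47287 were intergenic, over 250 and up to 500 bp long, the size range of many long terminal repeats (LTRs). Within the list they were chosen by position alone: the listed length had to fall in that range, and the copy had to overlap no gene of GENCODE M21 (GRCm38) on either strand. Among them, 2717 lay within 50 bp of a listed copy over 1 kb on the same strand and are called flanking here, and the other 44570 are called solitary. The table gives chromosome, start, end and strand for each copy and no family name, so size and layout are known and whether a copy is an LTR is not. Solitary likewise means only that no long copy of the same strand is listed within 50 bp: 454 of these have one on the other strand. Every listed copy had at least 10 reads over the 6 libraries, so a copy without het reads is listed only through its KO reads. The RNA came from male germ cells (gonocytes) of the testis at P0, isolated from mice that all carried the Mvh-Venus transgene. The knockout (KO) group was Morc1 (-/-) and the control (het) group Morc1 (+/-), with 3 libraries each, so the controls also carried 1 disrupted allele and no wild type entered. The labels do not say whether the samples of a group came from separate animals, so p-values measure only the spread between these samples.

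An LTR retrotransposon carries the same LTR at both ends, and the LTR holds the promoter that starts its transcript and the signal that ends it. Recombination between both LTRs of one element removes the coding part and leaves a solitary LTR, which can still act as a promoter for the sequence beside it. MORC1, an ATPase of the microrchidia family made in germ cells, is needed for the silencing of transposable elements in the male germ line.

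The sequence of a copy could be read only where it overlapped a promoter window of the RefSeq annotation (GRCm38.p6), which runs from 250 bases before to 50 bases after a gene's start. Such a window touched 294 of the copies, of which 60 were abundant enough to test and 3 were called as changed between the genotypes. The intergenic rule used GENCODE alone, so such a copy can cover a RefSeq start. These 3 are shown because each changed copy overlaps a promoter window, whether or not it reaches the start. Each stretch is given 5′ to 3′ on the strand of the RefSeq gene, and capitals mark AATAAA, the core of the signal that ends a transcript.
Gm42075 window, chr11:49598960-49599029, minus strand: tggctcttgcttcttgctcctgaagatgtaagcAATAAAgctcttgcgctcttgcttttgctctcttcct
Gm32681 window, chr9:51046168-51046444, plus strand: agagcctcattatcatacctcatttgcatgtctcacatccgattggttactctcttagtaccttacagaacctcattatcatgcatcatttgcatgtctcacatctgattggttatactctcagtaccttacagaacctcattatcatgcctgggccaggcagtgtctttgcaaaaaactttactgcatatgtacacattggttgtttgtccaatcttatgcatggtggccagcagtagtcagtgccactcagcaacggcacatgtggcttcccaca
Gm12984 window, chr4:135305882-135306181, plus strand: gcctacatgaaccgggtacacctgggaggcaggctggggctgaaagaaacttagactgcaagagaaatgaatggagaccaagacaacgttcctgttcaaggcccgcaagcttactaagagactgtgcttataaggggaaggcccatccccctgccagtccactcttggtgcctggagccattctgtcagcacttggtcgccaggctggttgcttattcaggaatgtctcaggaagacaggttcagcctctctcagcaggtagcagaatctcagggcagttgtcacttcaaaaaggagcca

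The first sequence is the part of the Gm42075 window inside a 456 bp copy on the minus strand, chr11:49598960-49599415, which lies before that gene's start on the same strand. This copy held 20.03, 50.3 and 34.2 normalized counts in KO replicates 1 to 3 against 2.11, 0 and 0.958 in het replicates 1 to 3, with no overlap. Its log2 change was 4.20 (SE 0.89, limma adjusted p = 0.00721). The second comes from a 497 bp copy, chr9:51045948-51046444, which lies on the minus strand across the start of Gm32681, a gene of the plus strand. It held 19.1, 26.3 and 17.1 normalized counts in KO against 0, 3.37 and 0 in het (log2 change 3.72, SE 1.06, limma adjusted p = 0.0332). The third covers the whole Gm12984 window inside a 406 bp copy of the minus strand that fell in KO, from 65.4, 47.1 and 49.8 to 7.63, 4.64 and 0 normalized counts. Searched on both strands, AATAAA occurred once, in the Gm42075 stretch, and TATAAA, the core of a TATA box, occurred in none of them. Over the same stretch of all 32851 windows, AATAAA was found in 6.77%, 18.9% and 19.6% and TATAAA in 3.76%, 13.0% and 13.6%, in the order printed above.

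Over all copies together, flanking copies gave about double the share of reads in KO, while the libraries of the far larger solitary group overlapped on this scale. Per 100 gene reads, flanking copies held 0.0312, 0.0279 and 0.0454 reads in het replicates 1, 2 and 3, against 0.0570, 0.0931 and 0.0625 in the KO libraries in the same order. Every KO library was thus above every het library. The means were 0.0348 ± 0.00927 and 0.0709 ± 0.0195 (SD, n = 3 each), a ratio of 2.04 (exact two-sided permutation test, p = 0.1, the smallest that 3 against 3 allows). Solitary copies held 0.676, 0.636 and 0.886 (het) against 0.842, 1.12 and 0.971 (KO). Here het replicate 3 lay above KO replicate 1, the ratio of means was 1.33, and the exact permutation p was 0.2. The overlap depended on the scaling and on genes nearby: by the sum of the deposited normalized values the groups did not overlap, at a smaller log2 difference (0.12 in place of 0.41), and neither did they for solitary copies at least 10 kb from any gene (0.61), with an exact permutation p = 0.1 for each. For flanking copies the deposited scaling gave 0.72 in place of 1.03 (exact permutation p = 0.1). Both kinds of copy taken as one overlapped between genotypes too: het 0.767 ± 0.143, KO 1.05 ± 0.155 (SD, n = 3 each), a ratio of 1.36, exact permutation p = 0.2. By the deposited values that log2 difference was 0.16 in place of 0.45. Per 100 gene reads, the ratio was 2.01 over all intergenic copies and 1.48 over all listed copies (exact permutation p = 0.1 for each). The flanking ratio was thus near that of all intergenic copies, and the solitary ratio was below both. In bulk RNA, fewer transcribing cells and less RNA per cell cannot be told apart.

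**Figure D1:**
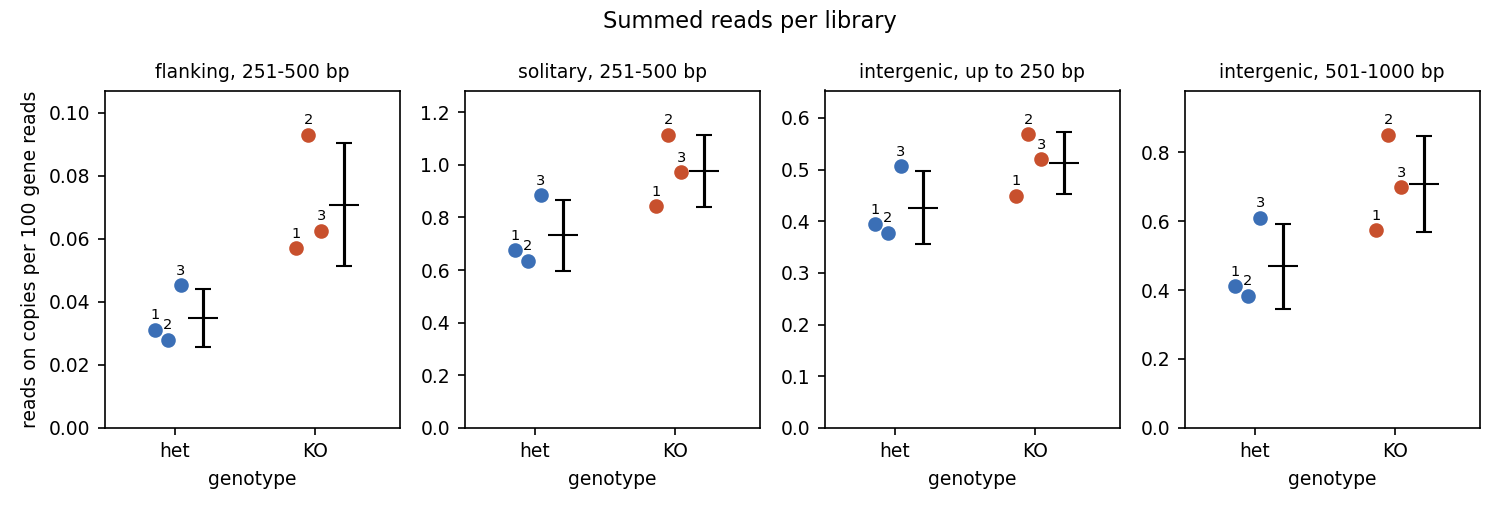
Reads on copies per 100 reads of the gene table (y axis, from 0) for het and KO libraries (x axis), in flanking and solitary copies and in intergenic copies of up to 250 bp and of over 500 to 1000 bp; points are libraries with their replicate number, and bars the mean and SD of 3. Het and KO points are apart for flanking copies, while het replicate 3 lies above KO replicate 1 for solitary ones.

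The ratio of flanking to solitary reads within a library needs no scaling between libraries. Its log2 was -4.44, -4.51 and -4.29 (het) against -3.89, -3.58 and -3.96 (KO). The groups were apart, with a difference of 0.60 (exact permutation p = 0.1, the smallest possible). Restricted to copies at least 10 kb from any gene, the difference was 0.59, again with p = 0.1 by the exact permutation test. Without KO replicate 2, the library with the highest flanking share, it was 0.49.

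The libraries differed in more than genotype. Reads in the gene table ran from 28363683 to 32816861 per library and in the TE table from 1974504 to 3703419, of which the copies described here took 9.26% to 11.0%. Morc1 itself had 7248, 7485 and 4126 normalized counts in het against 1360, 1343 and 1794 in KO, so no label was contradicted. The 8 germ cell markers summed to between 113441 and 160944 normalized counts in het and between 121097 and 155355 in KO. Sertoli cell markers (7 of 7 listed) summed to between 17536 and 37259 in het and between 12581 and 18099 in KO. All 7 had a log2 difference below 0 (median -0.69), and 3 had an unadjusted p under 0.05. Leydig cell markers (5 of 5 listed) summed to 24921 in het replicate 3 and to at most 1079 in the other libraries, and no marker of any list was at 0 in every library. No marker of these lists was called, and the part of other cell types in the results was not tested. Among the 25 genes of transposon silencing fixed for comparison, limma called Morc1 lower and none higher, and 4 of the 25 had an unadjusted p under 0.05.

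Single copies were tested with limma, where called means an adjusted p under 0.05. The fit covered every listed copy with a mean of at least 10 normalized counts, which 4819 of the 47287 passed (271 flanking, 4548 solitary). In the typical copy the level was too low for a test, with a median of 2.95 normalized counts. Among those tested, 510 were called higher and 74 lower in KO, or 10.6% and 1.54%, against a background of 15.6% and 0.735% of all 49781 tested copies. Over all tested intergenic copies, 28.1% were called higher and 1.03% lower. Of flanking copies 53 were called higher (19.6%) and 4 lower, and of solitary copies 457 higher (10.05%) and 70 lower. Many passed the minimum only through KO: 436 of the 510 had a het mean under 10. With no minimum, limma called 892 of all 47287 higher (1.89%) and 99 lower (0.209%), against 2.99% and 0.207% of all listed copies. That fit called 110 of the 2717 flanking (4.05%) and 782 of the 44570 solitary copies (1.75%) higher, against 5.03% of all intergenic copies.

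The balance of calls moved with the scaling. Size factors taken from genes gave 642 higher and 44 lower (18.1% and 0.376% of all tested copies), quantile normalization gave 348 and 173 (11.6% and 2.08% of all), and edgeR on the recovered reads gave 444 and 76 (13.0% and 0.715% of all). The median log2 change of all tested copies was 0.03, and became 0.34 with gene size factors and -0.41 with quantile normalization. Relative to that median, flanking copies stood at 0.66, 0.66 and 0.70 under these 3 scalings and solitary copies at -0.16 in each. With no minimum mean the sign for solitary copies turned, to 0.059, and flanking copies stood at 0.74. Counts of calls also rested on the number of KO libraries: higher calls numbered 150, 212 and 244 without KO replicate 1, 2 and 3, of which 12, 15 and 27 were flanking, while 7.35%, 9.08% and 9.64% of all tested copies were called. Lower calls fell to 48 and 46 without KO replicate 1 and 2, and to 21 and 29 without het replicate 1 and 2, beside 0.497%, 0.641%, 0.188% and 0.214% of all tested copies. Without both het replicate 3 and KO replicate 2, whose deviations resembled each other, 397 were higher and 84 lower (14.3% and 0.809% of all).

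A call in this design nearly requires that the groups do not overlap, and of the called copies 1 had groups that did. It was a 338 bp solitary copy, chr13:113253229-113253566, named after its values were seen, with 52.7, 58.3 and 16.3 normalized counts in het and 19.1, 0 and 0 in KO. Called or not, 895 of the tested copies (18.6%) had KO wholly above het, against 22.8% of all tested copies. Among flanking copies 37.3% of 271 did, and among all tested intergenic copies 39.8%. The reverse order was found in 578, against 7.58% of all tested copies. At the lowest levels, 1987 of all 47287 copies (4.20%) lacked reads in all het libraries and had some in every KO library. This compares with 2.38% of all listed copies and 3.98% of all intergenic ones. The share was 8.47% in flanking copies and 3.94% in solitary ones. The opposite pattern, reads in every het library and none in KO, was listed for 0.442% of flanking and 1.33% of solitary copies, against 1.05% of all copies. Each copy of either pattern reached the 10 reads of the list through a single genotype. Every KO library also held more TE reads than any het library, so these shares do not weigh rises against falls.

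Higher flanking copies changed by 1.69 to 5.44 on the log2 scale, and their KO means ran from 20.3 to 151 normalized counts with a median of 37.9. Higher solitary copies changed by 1.22 to 7.13, with KO means from 18.8 to 1368 and a median of 38.9. Among the 53 flanking, 7 had no het read, as did 64 of the 457 solitary. The minimum mean of 10 bounds these KO levels from below, so they do not compare the groups.

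The long neighbours of flanking copies were 2410 distinct copies with a median length of 1962 bp. Of the 2717 flanking copies 1479 abutted their neighbour, 1004 stood 1 to 50 bp away and 234 overlapped it. Both partners were tested in 226 pairs, and their changes ran in the same direction in 185. Across these pairs Spearman's rho of the log2 changes was 0.84 and Pearson's r 0.84, a description of pairs that share their libraries and may share reads across the junction. The minimum mean also shaped the pairs. Of the 271 tested flanking copies, 120 had a het mean under 10 and so passed only through KO. Beside a higher neighbour these were 58 of 70. A shared rise is thus partly built in by the filter. Of the 53 higher flanking copies, 36 had a neighbour that was also called higher, 9 one that was tested and not called and 8 one below the minimum. All 4 lower flanking copies had a lower neighbour. Of the 70 tested flanking copies beside a higher neighbour, the other 34 were not called.

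**Figure D2:**
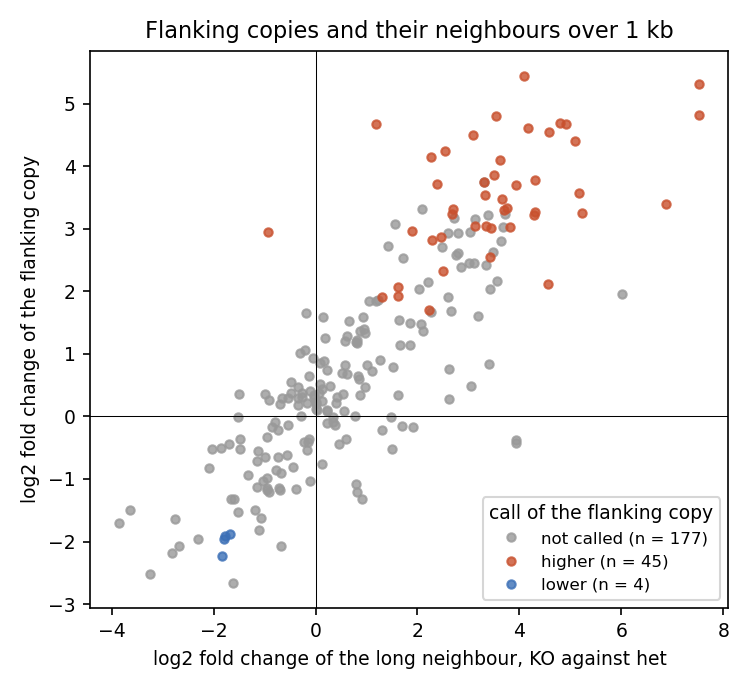
Log2 change of a flanking copy (y axis) against that of its neighbour over 1 kb (x axis), KO against het, for the 226 pairs in which both were tested; colours give the call of the flanking copy (45 higher, 4 lower, 177 not called). Most points lie in the upper right and lower left.

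Sorted by the call of the neighbour, flanking copies divided into unlike groups, given here without a test because neighbour and copy were measured in the same libraries. The 447 beside a higher neighbour held 0.00266, 0.00190 and 0.00336 reads per 100 gene reads in het and 0.0161, 0.0286 and 0.0164 in KO, a ratio of 7.71. Beside a neighbour that was tested and not called, 881 copies had a ratio of 1.56, and beside one below the minimum 1370 had 1.81. The 19 beside a lower neighbour had 0.395. Flanking copies gained less than their neighbours: the log2 ratio of their reads to those of their neighbours was -1.85, -1.84 and -1.52 in het and -2.23, -2.02 and -2.02 in KO, with no overlap (difference -0.35, exact permutation p = 0.1).

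Copies lying upstream of the long neighbour, in the place of a 5′ LTR, and copies downstream of it both held more reads in KO, and no difference between the sides was detectable with 3 libraries per group. Upstream copies (1468 listed, 131 tested) had 27 higher calls (20.6%) and downstream copies (1164 listed, 133 tested) had 25 (18.8%). The share was 15.6% of all tested copies and 28.1% of all tested intergenic copies. Summed reads of upstream and downstream copies differed between genotypes by ratios of 2.18 and 1.96, each with no overlap (exact permutation p = 0.1). The log2 ratio of upstream to downstream reads was -0.17, -0.10 and 0.07 in het and 0.24, 0.0035 and 0.14 in KO, which overlapped (difference 0.20, exact permutation p = 0.2). By length of the neighbour, the KO to het ratio of flanking reads was 1.91 beside copies of 1 to 3 kb, 2.29 beside 3 to 5 kb and 2.41 beside 5 to 20 kb. The share of tested copies called higher did not follow that order, at 20.8%, 22.9% and 10% in turn, and the differences were not tested.

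In 301 places a long copy carried a flanking copy on each side, the layout of an element with both LTRs. Their upstream partners had a KO to het ratio of 1.86 (exact permutation p = 0.1), their downstream partners 1.72 (exact permutation p = 0.2) and the long copies themselves 2.53 (exact permutation p = 0.1). Limma called 52 of the 178 tested long copies higher and 1 lower. The higher share was 29.2%, against 15.6% of all tested copies and 28.1% of all tested intergenic copies. Of the 60 partners tested at these places, 8 were called higher and 0 lower. At 2 loci the long copy and both partners were called higher. One, on the plus strand of chromosome 5, holds a long copy of 1856 bp, chr5:47971685-47973540, which had 1.05, 0 and 0 normalized counts in het and 163, 417 and 189 in KO (log2 change 7.53). Its 337 bp upstream partner, chr5:47971344-47971680, had no het read and 35.3, 91.3 and 17.96 normalized counts in KO, at least 15.4-fold higher when 3 reads are taken as the limit in each het library. The 339 bp downstream partner, chr5:47973545-47973883, had 0, 0 and 1.92 in het and 27.7, 81.3 and 26.5 in KO. All parts of this locus had their highest value in KO replicate 2, and without that library neither partner was called (log2 changes 4.71 and 4.30, adjusted p = 0.0569 and 0.0578, the highest over their alternatives, which ran down to 2.82e-06 and 0.000119).

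The other locus, on the minus strand of chromosome 3 and named after its values were seen, was already transcribed in het. Its 2620 bp copy, chr3:8020058-8022677, had 307, 296 and 192 normalized counts in het and 872, 797 and 730 in KO (log2 change 1.62, SE 0.34, limma adjusted p = 0.0075). The 449 bp upstream partner, chr3:8022678-8023126, had 11.6, 15.7 and 9.58 in het and 62.95, 37.9 and 47.9 in KO (log2 change 1.92). The 452 bp downstream partner, chr3:8019606-8020057, had 33.7, 22.4 and 54.6 in het and 130, 171 and 145 in KO (log2 change 2.06). At this locus the 3 parts changed by similar amounts and the downstream partner was the more abundant in every library.

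The flanking copy with the largest rise was chr15:49640687-49641083, 397 bp on the plus strand and upstream of a 1750 bp copy. It had no read in het and 52.5, 56.5 and 25.7 normalized counts in KO, at least 14.3-fold higher (log2 change 5.44, SE 0.93, limma adjusted p = 0.00238). The nearest gene, an snRNA gene named Gm23848, lay 102387 bp away, and the 1750 bp neighbour was not called (log2 change 4.09, limma adjusted p = 0.0604). Next by size, apart from the chromosome 5 pair, was chr2:11943631-11943993, 363 bp upstream of a 6262 bp copy that was itself called higher. Its counts were 0 in each het library and 28.6, 26.3 and 25.7 in KO, at least 8.57-fold higher, with the KO libraries close together.

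Downstream partners were among the large rises too. The 401 bp copy chr11:7841508-7841908, which abuts a higher 1508 bp copy, had no het read and 26.7, 23.2 and 24.8 normalized counts in KO, at least 7.95-fold higher. The 387 bp copy chr17:69537018-69537404 also had no het read, and 22.9, 46.4 and 13.7 in KO, at least 8.83-fold higher. Its abutting 3224 bp neighbour was not called (log2 change 1.19), so the copy changed where the long one did not pass the test. With 1 library fewer some of these calls missed the threshold while the size of the change stayed the same. Without KO replicate 1 the log2 changes of the chromosome 2 and 17 copies were 4.75 and 4.72 (adjusted p = 0.0683 and 0.0779), and without KO replicate 2 that of the chromosome 11 copy was 4.74 (adjusted p = 0.0532). Those p-values were the highest over their alternatives, which ran down to between 3.22e-05 and 6.23e-05. The chromosome 11 copy fell below the minimum mean without KO replicate 1 or 3, as did the chromosome 17 copy without KO replicate 2, and they were not tested there.

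The 4 lower flanking copies kept some reads in every KO library. On chromosome 5, the 376 bp copy chr5:45658758-45659133 had 35.9, 60.6 and 19.2 normalized counts in het and 9.54, 3.87 and 7.70 in KO, and its 3350 bp neighbour fell from a mean of 599 to 153. The 353 bp copy chr10:15875874-15876226, which has long copies on both sides, had 99.1, 85.3 and 82.4 in het against 11.4, 36.4 and 25.7 in KO. The 353 bp copy chr11:61391081-61391433, 12736 bp from Slc47a1, which encodes an exporter of organic cations, had 243, 203 and 134 in het against 47.7, 110 and 22.2 in KO. These fell by 2.23, 1.95 and 1.91 on the log2 scale (SE 0.65, 0.49 and 0.54). The fourth, chr9:85939699-85940056, lies outside the naming rule and had 79.1, 72.9 and 33.5 in het and 21.9, 10.1 and 15.4 in KO. Groups did not overlap in any of the 4. The chromosome 5 copy was not called without any single library except het replicate 3, the chromosome 10 copy without KO replicate 1 or het replicate 1 or 2, and the chromosome 11 copy without KO replicate 1 or 3 or het replicate 1 or 2. With gene size factors none of these 3 was called, and their adjusted p-values over all alternatives reached 0.197, 0.0707 and 0.114.

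**Figure D3:**
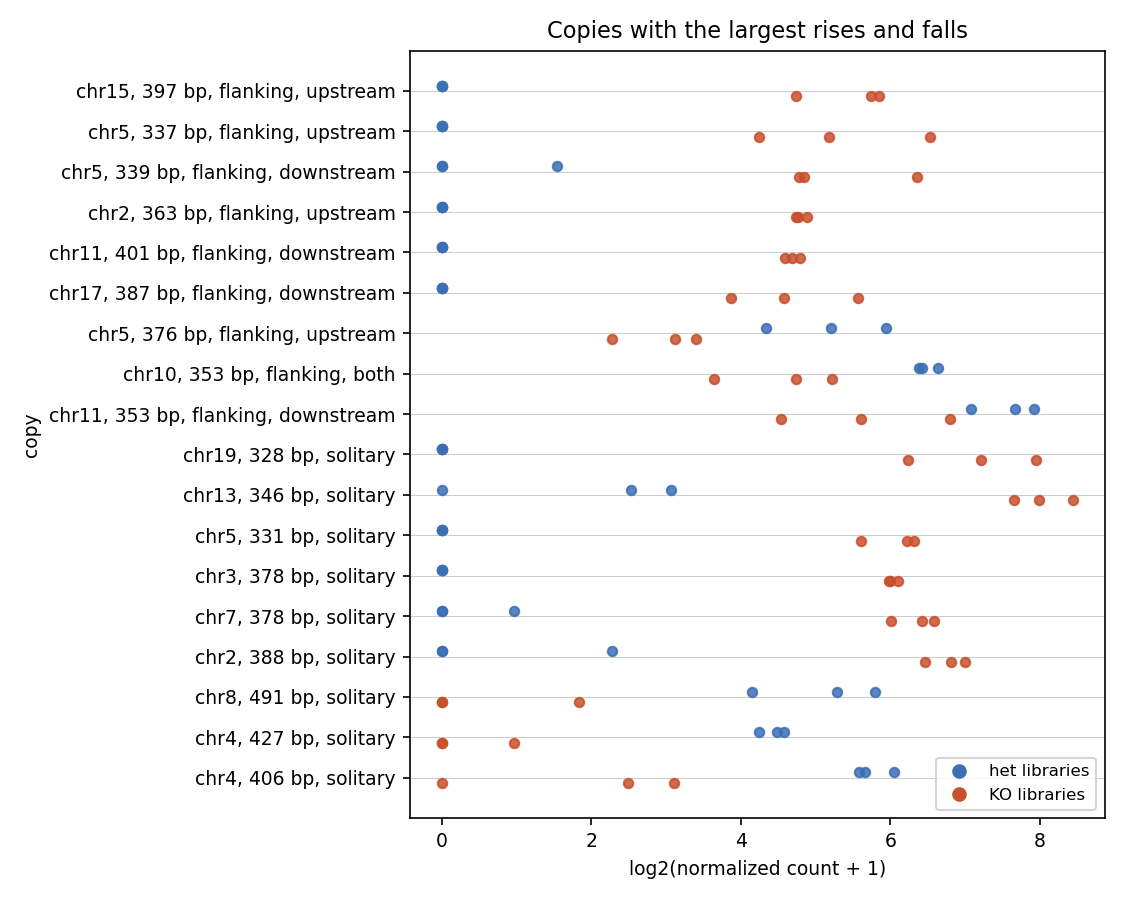
Values of the named copies with the largest rises and falls, as log2(normalized count + 1) on the x axis, with 1 copy per line and 1 point per library (het blue, KO red). In most rising copies the het points sit at 0, while falling flanking copies keep counts in every KO library.

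Among the more numerous solitary copies the largest rises exceeded those of flanking ones. The largest was the 328 bp copy chr19:27499141-27499468, with no het read and 147, 74.3 and 245 normalized counts in KO, at least 49.6-fold higher (log2 change 7.13, SE 0.71, limma adjusted p = 0.000398). The 346 bp copy chr13:79271724-79272069 had 7.38, 0 and 4.79 in het and 200, 253 and 348 in KO (log2 change 6.16, SE 0.72). The nearest higher copy over 1 kb was 197 kb from the first and 32.7 kb from the second.

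A pair of similar rises lay closer to long copies. The 331 bp copy chr5:94060969-94061299 stood 4852 bp from the protein-coding gene BC061212 and 4.69 kb from a higher copy of 7394 bp, and it went from no het read to 73.4, 48.0 and 78.7 normalized counts. The 378 bp copy chr3:134804250-134804627 lay 24380 bp from Tacr3, a neuropeptide receptor gene, and had 67.7, 62.7 and 62.4 in KO and none in het. Those were at least 21.3-fold and 20.5-fold higher.

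The last pair by rank had 1 and 4 het reads in all. The 378 bp copy chr7:82164662-82165039, 2943 bp from the lincRNA gene Gm32850, had 0, 0 and 0.958 normalized counts in het and 95.4, 63.5 and 84.7 in KO. The 388 bp copy chr2:130194644-130195031 ended 163 bp before Tmc2 and had 0, 0 and 3.83 in het and 87.8, 111 and 127 in KO. Each of the 6 solitary copies, chosen for separate groups and large rises, stayed called under every alternative run, with adjusted p-values up to 0.0187.

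The 3 largest falls among solitary copies follow. By the rule for solitary copies, no long copy was listed within 50 bp on their strand. The nearest higher copy over 1 kb lay 191, 1629 and 150 kb away, in the order below. Long copies farther off that were not called higher are not described for them. The 491 bp copy chr8:100056465-100056955 had 38.0, 16.8 and 54.6 normalized counts in het and 0, 0 and 2.57 in KO (log2 change -4.47, SE 0.97, limma adjusted p = 0.00854). It was not called without het replicate 1 or 3 (log2 changes -4.37 and -4.11, limma adjusted p = 0.137 and 0.107). Nor was it called without het replicate 3 and KO replicate 2 together (log2 change -3.80, limma adjusted p = 0.0540). Its adjusted p-values over all alternatives ran from 4.98e-05 to 0.137. The 427 bp copy chr4:155377953-155378379, 6601 bp from Gabrd, which encodes a GABA receptor subunit, had 17.9, 21.3 and 23.0 in het against 0.954, 0 and 0 in KO, and was not called with the replicate number as a block or without het replicate 3 and KO replicate 2 together (adjusted p = 0.0592 and 0.0628, over alternatives from 0.000287 to 0.0628). Without any single het library it fell below the minimum mean and was not tested. The third was the Gm12984 copy shown above, chr4:135305863-135306268, whose log2 change was -3.90 (SE 0.82, limma adjusted p = 0.00706), and which was not called with a pseudocount of 0.1 (adjusted p = 0.0649, over alternatives from 3.23e-05 to 0.0649).

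The most abundant copies in het were not called. Among solitary copies, chr9:97281560-97281973 had a mean of 1235 ± 36.0 normalized counts in het and 1330 ± 87.5 in KO (SD, n = 3 each). The copy chr2:151644295-151644685, 719 bp from Rad21l, a cohesin gene of meiosis, had 1141, 1076 and 997 in het and 1057, 875 and 2734 in KO, so KO replicate 3 alone set its higher KO mean. Without KO replicate 3 its log2 difference turned from 0.35 to -0.15. Among flanking copies, chr2:156830632-156831088 had means of 289 in het and 222 in KO, and chr13:13544006-13544420 had 201 and 311. Of these 4, the largest log2 difference was 0.60 (SE 0.34, limma adjusted p = 0.323).

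Higher solitary copies lay nearer to higher long copies than the rest of the solitary copies did. The median distance to the nearest called higher copy over 1 kb was 27.5 kb for the 457 higher solitary copies, 347 kb for the 4021 not called and 316 kb for the 70 lower. Within 10 kb stood 165 of the 457 (36.1%) and 168 of the 4021 (4.18%). Within 50 kb stood 58.6% of the higher, 14.7% of those not called and 15.7% of the lower. These are descriptions, since copies at one locus share their libraries and possibly a transcript. Of the 165, 71 lay upstream and 33 downstream of the long copy on its own strand, and 44 and 17 on the opposite strand. The same split was not made for the 168 copies not called, so these counts have no base share beside them.

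**Figure D4:**
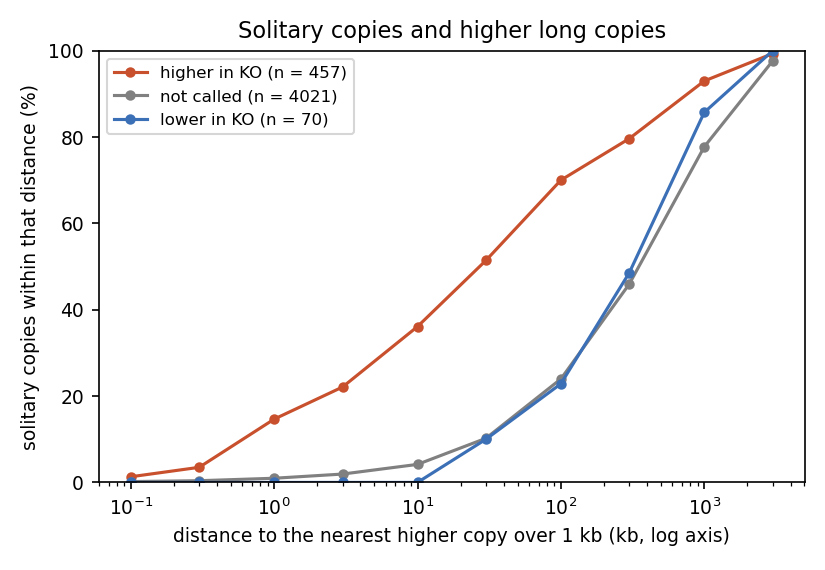
Share of solitary copies (y axis, percent) that lie within a given distance (x axis, kb, log axis) of the nearest copy over 1 kb called higher in KO, for higher (457), not called (4021) and lower (70) solitary copies. At 10 kb the share is 36.1% for higher and 4.18% for not called copies.

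Summed reads followed the same distances, given without a test because the long copies were picked by their calls in the same libraries. The 3079 solitary copies within 10 kb of a higher long copy had a KO to het ratio of 4.06, and the 6257 at 10 to 50 kb had 1.79. For the 35234 farther away the values were 0.583, 0.546 and 0.748 reads per 100 gene reads in het and 0.640, 0.814 and 0.731 in KO, which overlapped at a ratio of 1.16. Some rises had no called rise nearby: 189 of the 457 had no higher long copy within 50 kb, and 117 had no other higher copy of any length within 10 kb. Only called copies count here, and 49781 of the 298593 listed copies were tested, so a rise in an untested copy nearby would be missed. A looser rule for neighbours filled the range between both groups, since the 1571 solitary copies 51 to 500 bp from a long copy of the same strand had a ratio of 1.64 (exact permutation p = 0.1), with 31 higher calls among 176 tested (17.6%, near the 15.6% of all tested copies).

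Distance from genes ordered the differences as well. Solitary copies within 10 kb of a gene had a KO to het ratio of 1.183 and those at 10 to 50 kb of 1.40 (exact permutation p = 0.2 for each). Beyond 50 kb the ratio was 1.86 with no overlap (exact permutation p = 0.1). For flanking copies the ratios were 1.72, 2.06 and 2.95 in the same order, all without overlap (exact permutation p = 0.1 for each). The share of tested copies called higher was 7.01% within 10 kb of a gene, 13.0% at 10 to 50 kb, 20.5% at 50 to 200 kb and 28.8% beyond, where 66 copies were tested. It was 15.6% over all tested copies and 28.1% over all tested intergenic copies, and neither was split by distance. Copies with a het mean under 10, which passed the minimum only through KO, were more frequent far from genes. They numbered 508 of 2753, 409 of 1497, 197 of 503 and 31 of 66 tested in the same order, so the filter enters these shares. Differences between the distance classes were not tested.

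**Figure D5:**
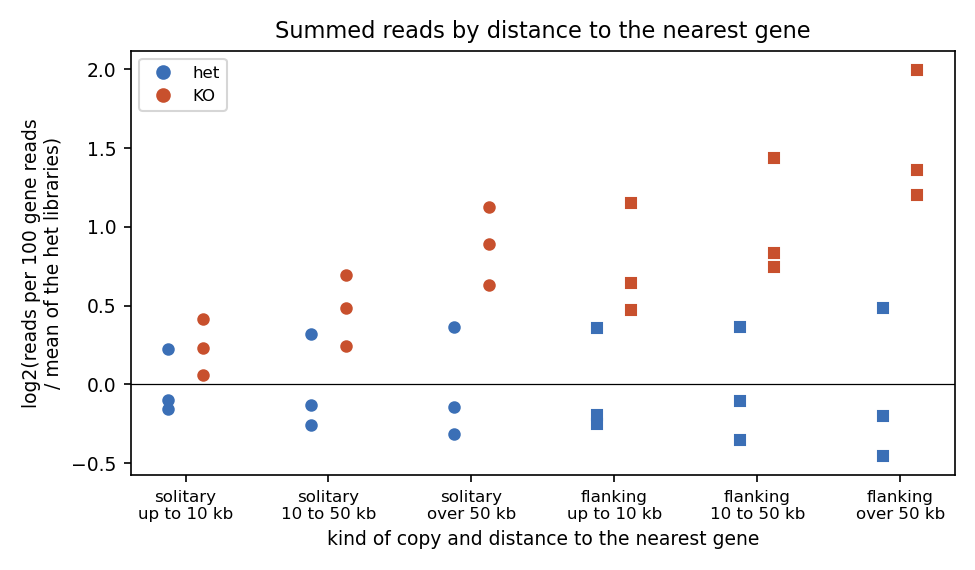
Reads per 100 gene reads of each library as log2 of the ratio to the het mean (y axis) by kind of copy and distance to the nearest gene (x axis); circles are solitary and squares flanking copies, het in blue and KO in red, 3 libraries each. KO points lie higher with distance, and het and KO do not overlap for flanking copies or for solitary ones over 50 kb away.

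Few genes beside higher copies changed. Within 10 kb downstream on the strand of a higher copy, 34 tested genes start, of which limma called 2 higher (5.88%), against 0.431% of all 26005 tested genes. For tested copies that were not called, the share was 0.767% of 652 genes. One was Tmc2 (ENSMUSG00000060332), which encodes part of the mechanotransduction channel of hair cells. It rose from 73.4, 35.7 and 55.6 to 1252, 1870 and 1908 normalized counts (log2 change 4.94, SE 0.33, limma adjusted p = 0.000285). Before it lie 2 abutting higher copies, the 388 bp copy described above and a 464 bp copy, chr2:130194180-130194643, with 0, 0 and 0.958 normalized counts in het and 39.1, 36.4 and 53.0 in KO. The second gene was 4930558C23Rik (ENSMUSG00000105734), with 40.05, 31.9 and 34.1 in het and 1357, 1568 and 1847 in KO, 4305 bp from the 376 bp copy chr3:95407146-95407521. That copy had 1.05, 0 and 0 in het and 14.3, 27.9 and 20.5 in KO. Read counting by strand is not given in the sources used here, so transcripts that run from copy to gene cannot be told apart from separate ones.

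Downstream of lower copies, 1 of 8 tested genes was called lower, against 0.0423% of all tested genes. This was Hmgcs1 (ENSMUSG00000093930), which encodes an enzyme of cholesterol synthesis, with 16645, 15291 and 15690 normalized counts in het and 7120, 8668 and 6556 in KO (log2 change -1.10, SE 0.19, limma adjusted p = 0.0394). The copies chr13:119688471-119688941 and chr13:119689072-119689512 stand 1438 and 867 bp before its start. The first had 162, 149 and 104 normalized counts in het and 42.9, 21.7 and 14.5 in KO, and the second 144, 126 and 70.9 in het and 40.1, 5.42 and 8.55 in KO. Copies and gene thus fell together, the copies by 2.46 and 3.01 on the log2 scale.

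Length within the range left the share of higher calls nearly level, with no test of the differences. In steps of 50 bp from the shortest to the longest copies it was 9.43%, 11.4%, 9.58%, 12.1% and 10.5% of those tested. Around the limits of the rule, it was 9.30% in the 10 lengths just below the range and 6.504% in the first 10 inside it, and 8.67% in the last 10 inside it and 14.6% in the next 10 above. Among the autosomes it was lowest on chromosome 13 (6.02%, 18 of 299) and highest on chromosome 3 (17.2%, 44 of 256). Over all chromosomes it was 10.6%, against 15.6% of all tested copies, whose shares by chromosome were not made.

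Against intergenic copies of other lengths, those described here stood between the shorter and the longer. Up to 250 bp, 7.28% of 2254 tested copies were called higher, and at over 500 to 1000 bp 13.9% of 3320, while over all intergenic lengths it was 28.1% of 20598. The log2 ratio of their reads to those of copies of up to 250 bp was 0.84, 0.81 and 0.88 in het and 1.00, 1.09 and 0.99 in KO, with no overlap (difference 0.18, exact permutation p = 0.1). Against over 500 to 1000 bp it was 0.78, 0.79 and 0.61 in het and 0.65, 0.50 and 0.56 in KO, which overlapped (difference -0.15, exact permutation p = 0.2). Flanking copies alone gained on those of over 500 to 1000 bp (difference 0.42, exact permutation p = 0.1). Of copies in the same length range that overlap a gene, 1.81% of 10166 tested were called higher.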

How the data were processed

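RNA of 12 samples is described in the labels, and the deposited tables used here hold the 6 P0 samples. The processing tools are bcl2fastq 2.20, cutadapt 1.18, HISAT2 2.1.0, featureCounts 1.5.2 and DESeq2 1.26.0 (builds mm10 and GRCm38), per the submitters' processing notes. Strand handling, the treatment of reads matching several places and the repeat annotation are not given in the sources used here, so counts of similar copies are uncertain. The deposited values are a signal, called normalized counts here: read counts that the authors divided by 1 size factor per library. Whole reads were recovered from the steps of the values, within 0.01, and used for sums and count tests.

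Copies with a mean of at least 10 were fitted on log2(value + 1) by limma (version 3.58.1, R 4.3.3), with a moderated two-sided test, a mean-variance trend and genotype as the only term; Benjamini-Hochberg adjustment ran over all 49781 tested copies. Genes were fitted the same way. This log2 scale understates the change of low copies. Folds against a group without reads were computed against 3 reads per library, which covers counting error only, since reads carry no molecular identifiers here. Sums per library were compared by exact two-sided permutation over 20 splits. Alternatives included edgeR 4.0.16 and DESeq2 1.42.0 on recovered reads, other scalings, pseudocounts and minimums, and leaving out libraries. The fit was tested on simulated data, where the changed copies lay well above the minimum mean in het and all copies shared a fixed dispersion. Rises from few or no het reads were not covered by it.

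By the naming rule, the text names the 6 largest rises and 3 largest falls of each kind among called copies with separate groups, and the 2 of each kind with the highest het mean, leaving out chromosome 18. Copies were chosen, and lists and tests set, with earlier results of these data known. Sequence features and sequence groups of all copies, which need a genome, were not made. Same-numbered samples do not deviate together, so no pairing was used. The closest libraries of a group, het replicates 1 and 2, differed by a mean chi-square of 2.66 per copy where counting noise gives 1.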

Additional observations from a re-analysis of the deposited data

How the results depend on the processing

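Sums and within-library ratios kept their direction under every alternative run. On the log2 scale the KO minus het difference ran from 0.16 to 0.65 for all copies (0.45 as reported), 0.72 to 1.27 for flanking (1.03), 0.12 to 0.61 for solitary (0.41) and 0.49 to 0.83 for flanking against solitary (0.60). The last needs no scaling, so deposited values gave no separate result for it.

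Counts of calls depended on settings. A minimum mean of 50 gave 76 higher and 24 lower of 338 copies, beside 37.4% and 2.09% of all copies, with 4 flanking and 72 solitary higher. No minimum gave 892 higher, 110 flanking and 782 solitary. A pseudocount of 0.1 gave 334 higher and 48 lower, 34 flanking and 300 solitary higher (11.8% and 0.41% of all copies), and one of 10 gave 115 lower (1.22% of all). Gene size factors gave 44 lower, DESeq2 144 lower (1.64% of all), and quantile normalization 173 lower and 35 flanking higher. At least 10 kb from any gene there were 317 higher and 32 lower of 2067 tested. Of these, 34 of 152 flanking and 283 of 1915 solitary copies were higher. A neighbour within 500 bp gave 84 of 447 tested flanking copies higher, and one over 5 kb 4 of 40. These settings kept the calls of the main fit, where 15.6% of all tested copies were higher and 0.735% lower. Leaving out 1 library gave 150 to 613 higher, 21 to 85 lower, 12 to 73 flanking higher and 138 to 540 solitary higher. Higher genes within 50 kb downstream numbered 7 of 116 (6.03%) in place of 2 of 34 (5.88%).

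With the replicate number as a block, 380 copies were higher (376 shared with the 510), 54 lower, 40 flanking and 340 solitary higher, beside 13.3% higher and 0.488% lower of all copies. The numbers do not pair the samples: same-numbered deviations correlated at 0.15, -0.24 and -0.12 across copies. DESeq2 gave 564 higher, 500 of them shared, and edgeR 444, 425 shared.

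The 18 named rises and falls kept direction in the 263 of 270 refits that could be made and their call in 231. In the other 7 a copy (chromosome 4, 11 or 17) fell below the minimum mean. Among the most abundant copies, chr9:97281560-97281973 turned to -0.057 (DESeq2) and -0.030 (edgeR), and chr2:151644295-151644685 ran from -0.15 without KO replicate 3 to 0.67 without KO replicate 2. Leaving out het replicate 3 and KO replicate 2 together was chosen after seeing the data. Where these alternatives moved a count, the cause was not tested beyond the fewer copies or libraries that some of them use. Depth limited single copies: 10.2% reached the tested minimum.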
